A study of Mus musculus with 48 samples.

Results

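Axon guidance ligands and receptors are the secreted and membrane proteins by which growing axons and dendrites sense attraction and repulsion, and many of them also act at synapses. The genes described here are the protein-coding semaphorins (Sema), plexins (Plxn), neuropilins (Nrp), ephrins (Efna, Efnb), Eph receptors (Epha, Ephb), Slits, Robos, netrins (Ntn), Unc5 receptors and the leucine-rich repeat proteins Slitrk, Flrt and Lrrtm that the authors' 2 tables of mouse cerebellum mRNA list, chosen by symbol, with Robo3 and Sema5b left out. They number 44 of the 6094 genes listed in either table: 42 of 5508 in the comparison of Chd4 conditional knockout (cKO) with wild type (WT), 4 of 908 in that of rotarod training with rest, and 2 in both. Without Robo3 and Sema5b, RefSeq holds 82 protein-coding genes of these families, and all family totals below leave those 2 out. The symbols Nrp and Unc50 share a prefix with them but belong to none, and neither table lists those 2 genes.

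Cerebella of 4 groups of mice at postnatal days 27 to 28 were used, with 4 libraries each: WT, Chd4 cKO, WT mice after rotarod training (balancing on a turning rod) and WT mice at rest in the home cage. Chd4 is the ATPase of the NuRD complex, which moves nucleosomes. The labels used here name no Cre driver or floxed allele for the cKO, so which cells lost Chd4 cannot be read from them. Levels are log2 CPM (counts per 1 M reads of the library, with the authors' prior count). Each difference is one of mean log2 CPM, given ± SE, and its p comes from limma, adjusted by Benjamini-Hochberg, n = 4 libraries per group. Effective library sizes, read from the steps of low values, were 13.7 to 15.6 M reads for cKO and WT and 13.7 to 16.7 M for rotarod and rest.

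A gene appears in a table only if the authors' test passed it at 0.05 after adjustment, so every member had to differ to be seen, and a family gene that is not listed has no value here. The words rose and fell are kept for members that limma also passed at an adjusted p of 0.05, and the others are given by their values. The whole cerebellum was sequenced, so fewer cells of a type and less RNA per cell cannot be told apart. Chd4 itself fell by 0.44 ± 0.06, with WT libraries 1 to 4 at 8.34, 8.45, 8.41 and 8.31 and cKO libraries 1 to 4 at 8.06, 7.90, 7.90 and 7.90 log2 CPM. Of 85 markers of 8 other cerebellar cell classes (Purkinje cells, inhibitory interneurons, oligodendrocytes, astroglia, vascular, meningeal, microglia and choroid plexus), 47 were listed lower in cKO and 2 higher, with a median difference of -0.32, and limma passed 22 of the lower and 1 of the higher ones. Of all features the authors tested, 9.29% were listed lower and 11.0% higher, a share not matched on abundance. None of the listed markers was at 0 reads in a library. Of 12 granule neuron markers 4 were listed higher and 3 lower, all past limma, with a median difference of 0.20.

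As background, semaphorins signal through plexins. The secreted class 3 semaphorins mostly need a neuropilin as co-receptor, with Nrp2 serving Sema3f and Nrp1 serving Sema3a, while Sema3e can bind Plxnd1 directly. Ephrins sit on one cell and Eph receptor tyrosine kinases on the next, with A-type ephrins tied to the membrane by a lipid anchor and B-type ephrins spanning it. Slits repel axons through Robo receptors, and netrin-1 attracts through Dcc and repels through Unc5 receptors. In the cerebellum these families guide the migration of granule neurons and the targeting of axons in development, and Slitrk, Lrrtm, Flrt and netrin-G proteins organise synapses.

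In the cKO cerebellum the families were divided. The authors' table listed 20 members as higher and 22 as lower, together 51.2% of the 82 family genes. Of all features tested (about 27100) 20.3% were listed, 11.0% higher and 9.29% lower, and of RefSeq protein-coding symbols 21.7% were listed. These shares were not matched on abundance. Limma passed 18 members as higher and 11 as lower, which is 22.0% and 13.4% of the family genes. Limma could be fitted only to listed genes, and its calls made up 8.17% (higher) and 5.04% (lower) of all features tested by the authors. It passed 69.0% of the listed members and 65.0% of all listed genes. With each library centred on the median of the listed genes, which lay 0.10 higher in cKO, limma passed 15 higher and 21 lower members. Ntn3, Slitrk2 and Plxnc1 then lost their calls, and Plxna4, Robo2, Flrt1, Plxna1, Plxnb3, Lrrtm3, Sema3e, Sema6d, Flrt2 and Ntn1 gained one. Centring lowers every difference by that 0.10. The median comes from genes selected for differing and may itself hold real differences, so the gained calls add no evidence. Genotypes did not overlap in 36 of 42 members (85.7%, beside 78.0% of all listed genes). Both numbers describe genes selected for differing.

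Differences were larger among the higher members. Members listed higher had a median difference of 0.66 (0.53 over all listed higher genes), and those listed lower a median of -0.32, the same as over all listed lower genes (-0.32). The authors' deposited table gives an absolute log2 fold change of at least 1 for 6 higher members and 1 lower member, 16.7% of the listed members beside 18.8% of all listed genes, so changes of that size were about as common as among listed genes at large. Over all 42 the median difference was -0.20 (0.21 over all listed genes), and it was 0.26 without the Slitrk, Flrt and Lrrtm genes, with few members near 0.

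**Figure D1:**
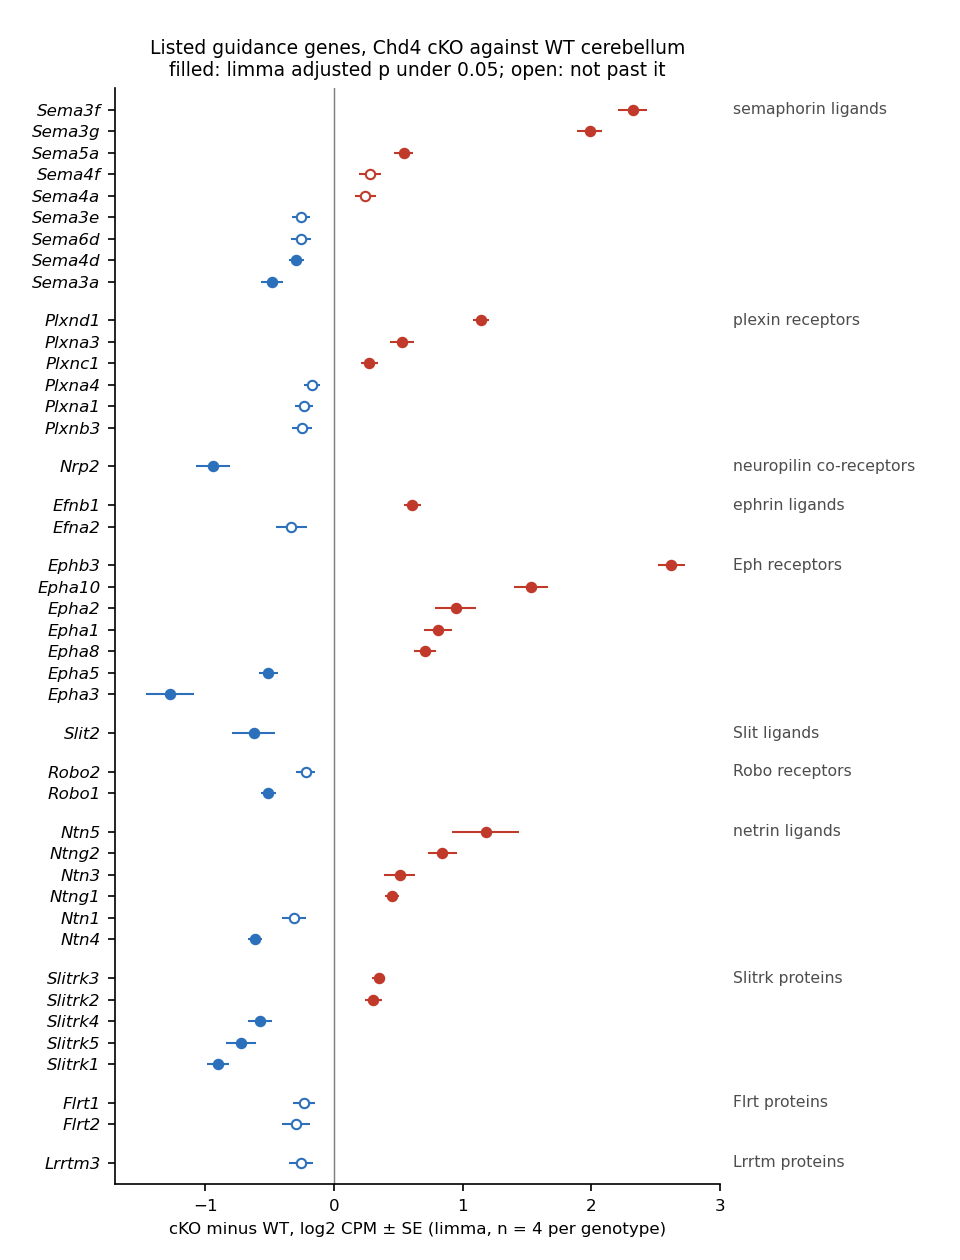
Difference of each listed member between Chd4 cKO and WT cerebellum (cKO minus WT, log2 CPM, point and SE from limma, n = 4 libraries per genotype), ordered by family. Filled points passed limma (29 members) and open points did not (13); Ephb3 and Sema3f lie farthest right and Epha3 farthest left.

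**Figure D2:**
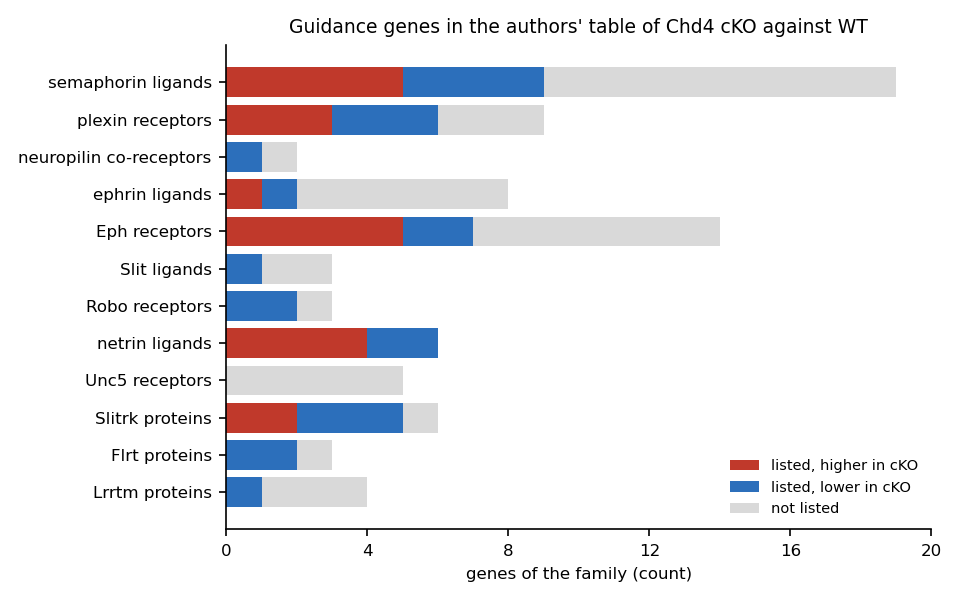
Number of genes of each family that the authors' table of cKO against WT lists as higher (red), lower (blue) or does not list (grey). All 6 netrin genes and 5 of 6 Slitrk genes are listed, and none of the 5 Unc5 genes is. The share listed over all features tested was 20.3%, not matched on abundance. At that share, the absence of all 5 Unc5 genes is no result about them.

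The promoters of the members with the largest rises (Ephb3, Sema3g) and falls (Epha3, Nrp2) for which the RefSeq table of build GRCm38.p6 holds 1 start site are shown because NuRD acts on chromatin at such regions; Sema3f is not in that table. Each runs from 250 bases before to 50 bases after the start, 5′ to 3′ on the gene's strand, and capitals mark each CG dinucleotide, which reads the same on both strands. Ephb3 lies on the + strand (chr16:21204545-21204844), Sema3g on + (chr14:31217623-31217922), Epha3 on - (chr16:63864126-63864425) and Nrp2 on + (chr1:62703067-62703366).
Ephb3: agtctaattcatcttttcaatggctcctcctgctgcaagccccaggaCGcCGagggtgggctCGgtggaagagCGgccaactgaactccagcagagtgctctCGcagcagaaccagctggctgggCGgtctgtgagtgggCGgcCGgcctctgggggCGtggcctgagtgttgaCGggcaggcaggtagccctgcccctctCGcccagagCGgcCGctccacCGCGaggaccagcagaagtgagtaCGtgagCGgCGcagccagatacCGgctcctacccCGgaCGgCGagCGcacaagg
Sema3g: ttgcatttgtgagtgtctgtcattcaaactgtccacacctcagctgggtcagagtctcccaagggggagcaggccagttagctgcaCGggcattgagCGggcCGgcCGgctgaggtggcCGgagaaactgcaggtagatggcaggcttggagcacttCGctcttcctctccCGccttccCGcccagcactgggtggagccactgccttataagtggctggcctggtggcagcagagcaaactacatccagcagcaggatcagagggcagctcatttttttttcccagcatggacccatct
Epha3: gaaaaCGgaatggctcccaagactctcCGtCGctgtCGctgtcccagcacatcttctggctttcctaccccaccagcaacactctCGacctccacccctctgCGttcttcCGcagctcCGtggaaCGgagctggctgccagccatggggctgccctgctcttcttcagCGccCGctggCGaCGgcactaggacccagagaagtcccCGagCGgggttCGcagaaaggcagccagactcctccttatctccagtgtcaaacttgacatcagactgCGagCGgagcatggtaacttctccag
Nrp2: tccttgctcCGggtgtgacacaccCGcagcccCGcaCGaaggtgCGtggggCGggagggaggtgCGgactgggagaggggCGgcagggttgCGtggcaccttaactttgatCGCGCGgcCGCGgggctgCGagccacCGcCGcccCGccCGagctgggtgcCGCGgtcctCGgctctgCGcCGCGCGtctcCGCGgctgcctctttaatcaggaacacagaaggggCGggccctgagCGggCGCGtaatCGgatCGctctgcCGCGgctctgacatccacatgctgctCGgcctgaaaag

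These windows hold 23 CG in Ephb3, 8 in Sema3g, 18 in Epha3 and 37 in Nrp2. Over all 32851 RefSeq promoters of that length 94.6% hold a CG, and the median count is 7. These promoters include genes that are not protein-coding and were not matched to the members on gene type or expression. The 19 higher members with a promoter in the table had a median of 14 CG (23 promoters), and the 17 lower members with one had 12.5 (22 promoters). Quartiles were 7.5 and 22 for the higher members, 5.25 and 27 for the lower ones, and 3 and 20 over all promoters. The printed promoters of genes that rose do not all have more CG than those of genes that fell. The authors' files use another build (mm9), and no chromatin measurement was joined to these windows.

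Among the semaphorins, 9 of 19 genes were listed, 5 higher and 4 lower. Limma passed 3 rises (Sema3f, Sema3g and Sema5a) and 2 falls (Sema3a and Sema4d). Sema3f, a secreted repellent that acts through Nrp2, was at 3.16, 2.78, 3.28 and 3.05 log2 CPM in WT libraries 1 to 4 and at 5.56, 5.33, 5.26 and 5.38 in cKO libraries 1 to 4. All 4 cKO libraries lie above all WT libraries, a 4.99-fold rise (2.32 ± 0.11, adjusted p = 1.05e-05). Sema3g, another secreted class 3 semaphorin, was at 2.88, 2.51, 2.84 and 2.51 log2 CPM in WT libraries 1 to 4 and at 4.70, 4.70, 4.58 and 4.71 in cKO libraries 1 to 4. It rose 3.96-fold (1.99 ± 0.10, adjusted p = 1.1e-05), again without overlap between genotypes. The thrombospondin-repeat semaphorin Sema5a rose by 0.54 ± 0.07 (adjusted p = 0.00189).

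The founding repellent of the family moved the other way. Sema3a was at 4.89, 4.83, 4.56 and 4.69 log2 CPM in WT libraries 1 to 4 and at 4.37, 4.31, 4.17 and 4.20 in cKO libraries 1 to 4. Every cKO library lies below every WT library, and the gene fell by 0.48 ± 0.09 (adjusted p = 0.00740). Sema4d, a transmembrane ligand of Plxnb1, was at 6.75, 6.69, 6.73 and 6.75 log2 CPM in WT libraries 1 to 4 and at 6.49, 6.52, 6.32 and 6.41 in cKO libraries 1 to 4, a fall of 0.29 ± 0.06 with no overlap (adjusted p = 0.0117). Sema4f and Sema4a, both transmembrane, differed by 0.28 ± 0.08 and 0.24 ± 0.08, and Sema3e and Sema6d by -0.25 ± 0.07 and -0.26 ± 0.08; limma passed none of these 4 (adjusted p = 0.0675, 0.0958, 0.0509 and 0.0684). Sema4f overlapped between genotypes and passed without WT library 3 (adjusted p = 0.0355), and Sema3e passed without cKO library 1 or without WT library 2 (0.0496 and 0.0495). Of the 4 listed class 3 semaphorins, 2 were thus higher and 2 lower, and among the lower ones limma passed only Sema3a. Sema3b, Sema3c and Sema3d are not listed.

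Plexins, the signalling receptors, were listed for 6 of 9 genes, 3 higher and 3 lower. Plxnd1, the receptor of Sema3e, was at 5.08, 5.15, 5.23 and 5.0 log2 CPM in WT libraries 1 to 4 and at 6.32, 6.19, 6.23 and 6.30 in cKO libraries 1 to 4. It rose 2.21-fold (1.14 ± 0.06, adjusted p = 1.89e-05), and its libraries spread by only 0.06 (cKO) and 0.10 (WT, SD). Plxna3 rose by 0.53 ± 0.09 and Plxnc1, the receptor of Sema7a, by 0.27 ± 0.07 (adjusted p = 0.00694 and 0.0287). Plxnc1 lost its call without any 1 of cKO libraries 3 and 4 or the 4 WT libraries (adjusted p = 0.0515 to 0.0859), and with centred libraries (0.135).

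The other 3 listed plexins had small negative differences that limma did not pass: -0.17 ± 0.06 for Plxna4, -0.23 ± 0.07 for Plxna1 and -0.25 ± 0.08 for Plxnb3 (adjusted p = 0.134, 0.0602 and 0.0771). Plxna1 passed without WT library 1 (adjusted p = 0.0224) and Plxnb3 without WT library 2 (0.0481). Of the neuropilins, Nrp1 is not listed and Nrp2, the co-receptor of Sema3f, was at 4.46, 4.54, 4.38 and 4.35 log2 CPM in WT libraries 1 to 4 and at 3.86, 3.33, 3.56 and 3.22 in cKO libraries 1 to 4. Nrp2 fell to 52.2% of its WT level (-0.94 ± 0.13, adjusted p = 0.00231), and its cKO libraries varied more (SD 0.28) than its WT libraries (0.08). The ligand Sema3f and its co-receptor Nrp2 thus differed in opposite directions in the same libraries.

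Of the 14 Eph receptor genes 7 were listed, 5 higher and 2 lower, and limma passed all 7. Ephb3, a receptor of B-type ephrins, was at 2.46, 2.04, 2.09 and 2.25 log2 CPM in WT libraries 1 to 4 and at 4.93, 4.92, 4.66 and 4.81 in cKO libraries 1 to 4. This 6.15-fold rise (2.62 ± 0.11, adjusted p = 4.64e-06) is the largest difference of the 42 members and corresponds to 268 reads over the WT and 1646 over the cKO libraries. Epha10, an Eph receptor without an active kinase, was at 3.89, 3.61, 3.36 and 3.87 log2 CPM in WT libraries 1 to 4 and at 5.36, 4.99, 5.20 and 5.30 in cKO libraries 1 to 4, a 2.89-fold rise (1.53 ± 0.13, adjusted p = 1.90e-04). Epha2 was at 2.13, 1.60, 1.82 and 1.87 log2 CPM in WT libraries 1 to 4 and at 2.58, 2.93, 2.57 and 3.12 in cKO libraries 1 to 4, and rose 1.93-fold (0.95 ± 0.16, adjusted p = 0.00512). In these 3 receptors no cKO library reached down to a WT library. Epha1 and Epha8 rose by 0.81 ± 0.11 and 0.71 ± 0.08 (adjusted p = 0.00175 and 9.54e-04), with WT levels of 2.57 ± 0.17 and 6.47 ± 0.09 log2 CPM (SD).

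Epha3 and Epha5, receptors of A-type ephrins, fell. Epha3 was at 4.72, 4.82, 4.81 and 4.85 log2 CPM in WT libraries 1 to 4 and at 2.97, 3.72, 3.97 and 3.45 in cKO libraries 1 to 4. The WT libraries agree within 0.14, whereas the cKO libraries span 2.97 to 3.97 and all lie below them, a fall to 41.4% of the WT level (-1.27 ± 0.19, adjusted p = 0.00294). Epha5 was at 4.21, 4.36, 4.17 and 4.18 log2 CPM in WT libraries 1 to 4 and at 3.89, 3.61, 3.64 and 3.73 in cKO libraries 1 to 4, without overlap, a fall of 0.51 ± 0.08 (adjusted p = 0.00305).

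Of the 8 ephrin genes 2 were listed, 1 higher and 1 lower. Efnb1, a transmembrane ephrin, rose by 0.61 ± 0.06 (adjusted p = 4.84e-04), from 3.09 ± 0.07 to 3.70 ± 0.09 log2 CPM (SD). Efna2 was at 2.63, 3.05, 2.92 and 2.75 log2 CPM in WT libraries 1 to 4 and at 2.52, 2.71, 2.56 and 2.24 in cKO libraries 1 to 4. Its genotypes overlap, and the difference of -0.33 ± 0.12 did not pass limma (adjusted p = 0.151). The ephrins Efna1, Efna3, Efna4, Efna5, Efnb2 and Efnb3 are not listed, nor are Epha4, Epha6, Epha7, Ephb1, Ephb2, Ephb4 and Ephb6. Where reads fall in 2 overlapping genes they cannot be assigned without strand, and the counting is not given in the sources used here: in RefSeq, Epha1 overlaps Zyx (listed, 0.38 higher) and Epha10 overlaps the noncoding gene 1700125G02Rik (listed, 1.63 higher).

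**Figure D3:**
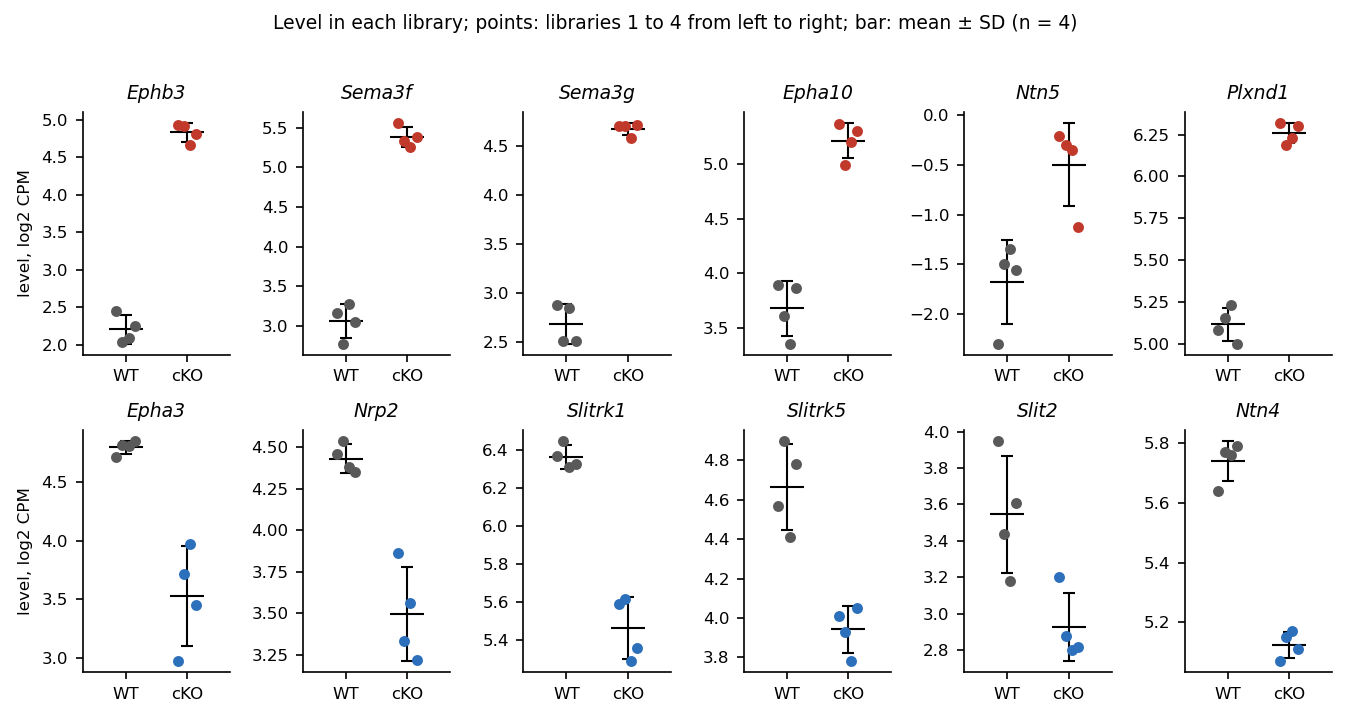
Level of the 6 members with the largest positive (top) and the 6 with the largest negative (bottom) difference, in log2 CPM, for each WT (grey) and cKO (coloured) library, with the group mean and SD (n = 4). Axes differ between panels; genotypes overlap only in Slit2, and Ntn5 rests on 34 reads in cKO and 11 in WT.

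The 3 listed members among the Slit and Robo genes were all lower, with Robo3 left out by the choice of members. Slit2, a secreted repellent, was at 3.95, 3.44, 3.18 and 3.61 log2 CPM in WT libraries 1 to 4 and at 3.20, 2.88, 2.80 and 2.82 in cKO libraries 1 to 4. WT library 3 lies just under cKO library 1, so the genotypes overlap, and the fall of 0.62 ± 0.16 just passed limma (adjusted p = 0.0421). It did not pass without cKO library 2, 3 or 4, or without WT library 1, 2 or 4 (adjusted p = 0.0653 to 0.115). Robo1, a receptor of Slits, was at 4.81, 4.82, 4.84 and 4.98 log2 CPM in WT libraries 1 to 4 and at 4.37, 4.42, 4.35 and 4.27 in cKO libraries 1 to 4, and fell by 0.51 ± 0.06 with no overlap (adjusted p = 8.43e-04). Robo2, its paralog, was at 5.38, 5.47, 5.26 and 5.32 log2 CPM in WT libraries 1 to 4 and at 5.0, 5.09, 5.22 and 5.25 in cKO libraries 1 to 4. The lowest WT and highest cKO libraries of Robo2 nearly touch, and its difference of -0.22 ± 0.08 did not pass limma (adjusted p = 0.110). Slit1, Slit3 and Robo4 are not listed.

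Every one of the 6 netrin genes was listed, 4 higher and 2 lower, beside 20.3% of all features tested, not matched on abundance. Limma passed the 4 higher ones and 1 of the lower ones. Ntng2, which encodes the membrane-anchored netrin-G2, was at 3.83, 4.26, 3.81 and 3.93 log2 CPM in WT libraries 1 to 4 and at 4.99, 4.68, 4.82 and 4.70 in cKO libraries 1 to 4, a rise of 0.84 ± 0.11 (adjusted p = 0.00190). Ntng1 was at 4.98, 4.98, 4.83 and 4.91 log2 CPM in WT libraries 1 to 4 and at 5.38, 5.44, 5.35 and 5.34 in cKO libraries 1 to 4. Both netrin-G genes rose in cKO without overlap (Ntng1 by 0.45 ± 0.05, adjusted p = 9.70e-04). In RefSeq Ntng2 overlaps the noncoding gene 6530402F18Rik, which is itself listed 0.80 higher.

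Ntn3 was at 2.66, 2.70, 2.43 and 2.14 log2 CPM in WT libraries 1 to 4 and at 2.95, 2.93, 3.01 and 3.09 in cKO libraries 1 to 4. Its rise of 0.51 ± 0.12 passed limma (adjusted p = 0.0264), but not without WT library 3 or without any 1 of the cKO libraries (0.0545 to 0.0757) nor with centred libraries (0.0525). Ntn3 overlaps Tbc1d24 (listed, 0.19 higher) in RefSeq. Ntn5 has few reads: it was at -2.30, -1.50, -1.35 and -1.56 log2 CPM in WT libraries 1 to 4 and at -0.21, -0.30, -0.35 and -1.12 in cKO libraries 1 to 4, which is 11 reads over all WT and 34 over all cKO libraries. The rise of 1.18 ± 0.26 (adjusted p = 0.0199) did not pass without cKO library 1, 2 or 3 (0.0575 to 0.0600). The authors' prior count lowers such differences, and the authors' deposited table gives a log2 fold change of 1.62.

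The netrin that fell was Ntn4, a basement membrane netrin related to laminins, which was at 5.64, 5.77, 5.76 and 5.79 log2 CPM in WT libraries 1 to 4 and at 5.07, 5.15, 5.17 and 5.11 in cKO libraries 1 to 4. Its genotypes are far apart for their spread, a fall of 0.62 ± 0.05 (adjusted p = 1.83e-04). Ntn1, the attractant netrin-1, was at 6.81, 6.92, 6.64 and 6.78 log2 CPM in WT libraries 1 to 4 and at 6.63, 6.47, 6.27 and 6.54 in cKO libraries 1 to 4. The highest cKO and the lowest WT library of Ntn1 meet at 6.63 and 6.64, and its difference of -0.31 ± 0.09 did not pass limma (adjusted p = 0.0660). Unc5a, Unc5b, Unc5c and Unc5d are not listed, nor is Unc5cl, which is counted with them by its symbol alone. Beside Ntn4, 6 of 12 vascular and 7 of 10 meningeal and fibroblast markers were listed, all lower, of which limma passed 5 vascular and 0 meningeal ones. They had summed levels of 105 to 125 CPM in cKO and 138 to 167 CPM in WT (vascular), and of 282 to 299 and 328 to 427 CPM (meningeal). Their part in the difference of Ntn4 was not tested.

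Slitrk genes, whose products sit on the postsynaptic side and bind receptor phosphatases, were listed for 5 of 6 members. Limma passed all 5, with 2 higher and 3 lower. The share listed over all features tested was 20.3%, not matched on abundance. Slitrk1 was at 6.37, 6.45, 6.31 and 6.33 log2 CPM in WT libraries 1 to 4 and at 5.59, 5.62, 5.29 and 5.36 in cKO libraries 1 to 4. It fell to 53.5% of its WT level (-0.90 ± 0.09, adjusted p = 3.11e-04). Slitrk5 was at 4.57, 4.90, 4.41 and 4.78 log2 CPM in WT libraries 1 to 4 and at 4.01, 3.93, 3.78 and 4.05 in cKO libraries 1 to 4, and Slitrk4 was at 5.96, 5.95, 5.95 and 6.08 log2 CPM in WT libraries 1 to 4 and at 5.31, 5.22, 5.62 and 5.51 in cKO libraries 1 to 4. Neither overlaps between genotypes; Slitrk5 fell by 0.72 ± 0.11 and Slitrk4 by 0.57 ± 0.09 (adjusted p = 0.00412 and 0.00459).

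Slitrk3, known for organising inhibitory synapses, was at 4.27, 4.38, 4.26 and 4.25 log2 CPM in WT libraries 1 to 4 and at 4.59, 4.62, 4.63 and 4.70 in cKO libraries 1 to 4, and Slitrk2 was at 4.98, 5.08, 5.01 and 4.98 log2 CPM in WT libraries 1 to 4 and at 5.17, 5.31, 5.41 and 5.39 in cKO libraries 1 to 4. They rose by less than the others fell, by 0.35 ± 0.05 and 0.31 ± 0.06 (adjusted p = 0.00292 and 0.0165), and Slitrk2 did not pass without cKO library 4 or without WT library 4 (0.0519 and 0.0515), nor with centred libraries (0.0648). The members of this family thus lie on both sides of 0, 5 of them past limma, and Slitrk6 is not listed.

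Of the other leucine-rich repeat genes 3 of 7 were listed, all lower and none past limma. Flrt1, which binds latrophilins and Unc5 receptors, was at 5.39, 5.35, 5.73 and 5.53 log2 CPM in WT libraries 1 to 4 and at 5.33, 5.25, 5.25 and 5.25 in cKO libraries 1 to 4, a difference of -0.23 ± 0.09 (adjusted p = 0.148). Of its 4 cKO libraries 3 are equal to 2 decimals and all 4 lie under the WT libraries. Flrt2 and the neurexin ligand gene Lrrtm3 differed by -0.29 ± 0.11 and -0.25 ± 0.09 (adjusted p = 0.160 and 0.141), with overlap; Flrt2 passed without WT library 3 (0.0286). In RefSeq Flrt1 overlaps Macrod1, which is listed 0.33 higher, and Lrrtm3 overlaps Ctnna3, which is not listed.

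By role, 18 of 36 ligand genes were listed, 10 higher and 8 lower, and 16 of 33 receptor genes, 8 higher and 8 lower. The 33 include Unc5cl, placed there by its symbol alone. Limma passed 8 higher and 4 lower genes in each of these classes. Of the 13 leucine-rich repeat genes 8 were listed, 2 higher and 6 lower, and limma passed 2 and 3. Beside the members that fell, 6 of 10 inhibitory interneuron and 11 of 13 Purkinje markers were listed lower, of which limma passed 5 and 6, and 1 interneuron marker was higher. Their summed levels were 627 to 687 CPM in cKO and 711 to 790 CPM in WT (interneuron) and 7573 to 8147 and 8928 to 9474 CPM (Purkinje). Of 13 oligodendrocyte markers 9 were listed, all lower and 3 past limma, with summed levels of 5096 to 5382 CPM in cKO and 5225 to 6963 CPM in WT. Their part in the falls was not tested.

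**Figure D4:**
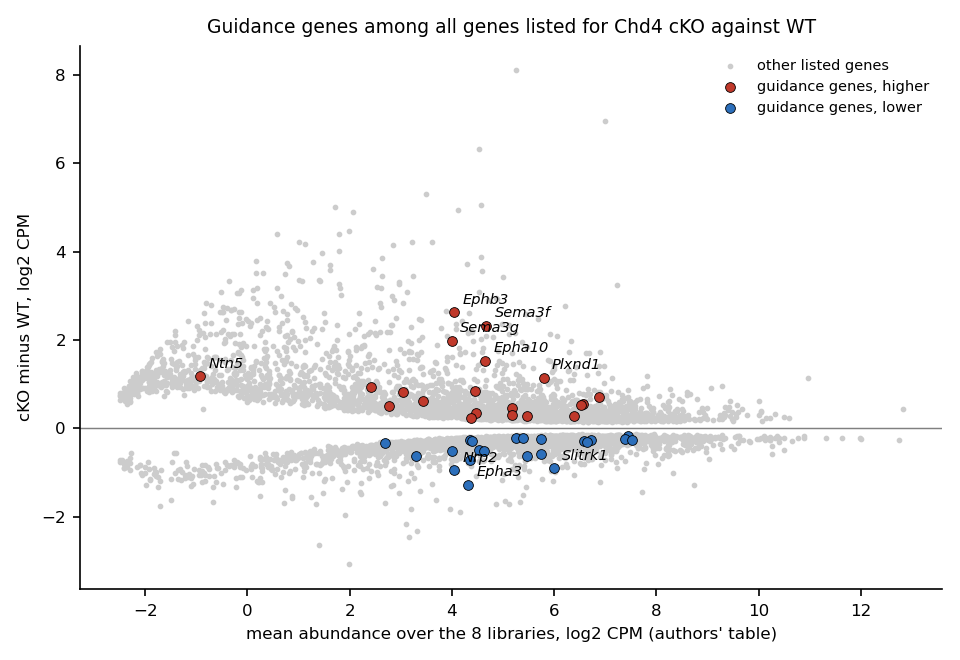
Difference between cKO and WT (log2 CPM) against mean abundance (log2 CPM) for the 42 members (red higher, blue lower) and all other listed genes (grey). The gap around 0 exists because only genes past the authors' threshold are listed; 20 members lie at or above the median abundance of 4.70 log2 CPM.

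Proteins that bind these ligands and receptors were then looked up. Of 26 such genes 11 were listed in cKO, 3 higher and 8 lower, with a median difference of -0.26, and limma passed 3 and 5. Of all features tested 20.3% were listed, 11.0% higher and 9.29% lower, not matched on abundance. Cd72, a binding partner of Sema4d on lymphoid cells, rose 3.99-fold (adjusted p = 4.54e-05), the netrin antagonist gene Draxin by 0.89 ± 0.13 (adjusted p = 0.00277) and the receptor phosphatase gene Ptprf by 0.59 ± 0.06 (adjusted p = 5.75e-04). Among those lower, the teneurin gene Tenm2 fell by 0.62 ± 0.05, Lrrc4, the partner of netrin-G2, by 0.28 ± 0.07, Dscaml1 by 0.26 ± 0.07, the latrophilin gene Adgrl2 by 0.25 ± 0.06 and Ptprd, a partner of Slitrk proteins, by 0.22 ± 0.05. The netrin receptor gene Dcc differed by -0.48 ± 0.17 and did not pass limma (adjusted p = 0.120). Ntng2 rose and Lrrc4 fell, while beside the fall of Ptprd 3 Slitrk genes fell and 2 rose.

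Cytoplasmic effectors of guidance were listed for 29 of 59 genes, 12 higher and 17 lower, with a median difference of -0.19, and limma passed 11 and 12. The share over all features tested was 20.3% listed, again not matched on abundance. Mical1, an oxidase that dismantles actin filaments downstream of plexins, rose 3.71-fold (1.89 ± 0.11), and Rnd1, a small GTPase that binds plexins, rose 2.48-fold (1.31 ± 0.06). Ngef, the exchange factor ephexin that acts downstream of EphA receptors, rose 1.99-fold (0.99 ± 0.13), and the actin regulator gene Vasp by 0.57 ± 0.05. On the lower side Srgap2 and Srgap1, which encode regulators of Robo signalling, fell by 0.46 ± 0.07 and 0.33 ± 0.06, the motor gene Myo10 by 0.42 ± 0.06 and Chn2, the gene of a Rac inactivator, by 0.34 ± 0.04. The highest adjusted p among these 8 was 0.0101. Of the 28 other cues and adhesion receptors, 5 were higher, all past limma, and 7 lower, 2 past limma: L1cam rose by 0.73 ± 0.07, Celsr2 by 0.39 ± 0.06, Vangl2 by 0.37 ± 0.09 and Reln by 0.37 ± 0.06, and the hedgehog co-receptor gene Boc fell by 0.82 ± 0.06 and Cntn2 by 0.24 ± 0.06.

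After rotarod training the listed share of these genes was near that of all features. The authors' table of rotarod against rest lists 4 of the 82 family genes (4.88%, beside 3.38% of about 26900 features tested and 3.51% of RefSeq protein-coding symbols), 3 higher and 1 lower (2.06% and 1.31% of features). No semaphorin, ephrin, Slit, Robo, netrin, Slitrk or Lrrtm gene is among them, which at so low a share of all features says little about any family. None of the 4 passed limma, whose unadjusted p was under 0.05 for all 4. Limma was again fitted only to listed genes and passed 18.4% of them. Its calls made up 0.420% (higher) and 0.201% (lower) of all features tested by the authors. The rotarod and rest libraries carry column numbers that match no sample title, so they are named by column.

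Flrt1 held 5.25, 4.73, 4.76 and 5.05 log2 CPM in rest columns 1, 2, 5 and 6 and 5.31, 5.46, 5.54 and 5.30 in rotarod columns 3, 4, 7 and 8. All trained libraries lie above all rest libraries, by 0.05 at the closest, and the difference was 0.45 ± 0.13 (adjusted p = 0.259). The plexin gene Plxna1 held 7.30, 7.11, 6.84 and 7.02 at rest and 7.34, 7.43, 7.40 and 7.46 after training, a difference of 0.34 ± 0.10 (adjusted p = 0.308). Ephb2, a receptor of B-type ephrins found at excitatory synapses, held 6.68, 6.39, 6.75 and 6.31 at rest and 6.82, 6.92, 7.16 and 6.95 after training (0.43 ± 0.12, adjusted p = 0.271). Flrt3 was the lower one, with 5.20, 5.23, 4.89 and 5.62 at rest and 4.76, 4.59, 4.79 and 4.58 after training (-0.55 ± 0.14, adjusted p = 0.203). None of the 4 overlaps between groups, nor do 84.9% of all genes in this table.

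Flrt1 and Plxna1 are the members listed in both tables, which share no libraries. In the cKO comparison Plxna1 was at 7.35, 7.53, 7.65 and 7.48 log2 CPM in WT libraries 1 to 4 and at 7.30, 7.23, 7.27 and 7.28 in cKO libraries 1 to 4, with all cKO libraries under all WT libraries. Each of the 2 genes was listed higher after training and lower in cKO: 0.45 ± 0.13 and -0.23 ± 0.09 for Flrt1, and 0.34 ± 0.10 and -0.23 ± 0.07 for Plxna1. Both pairs of values come from tables normalized separately, limma passed none of these 4 differences, and the difference between the comparisons was not tested.

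**Figure D5:**
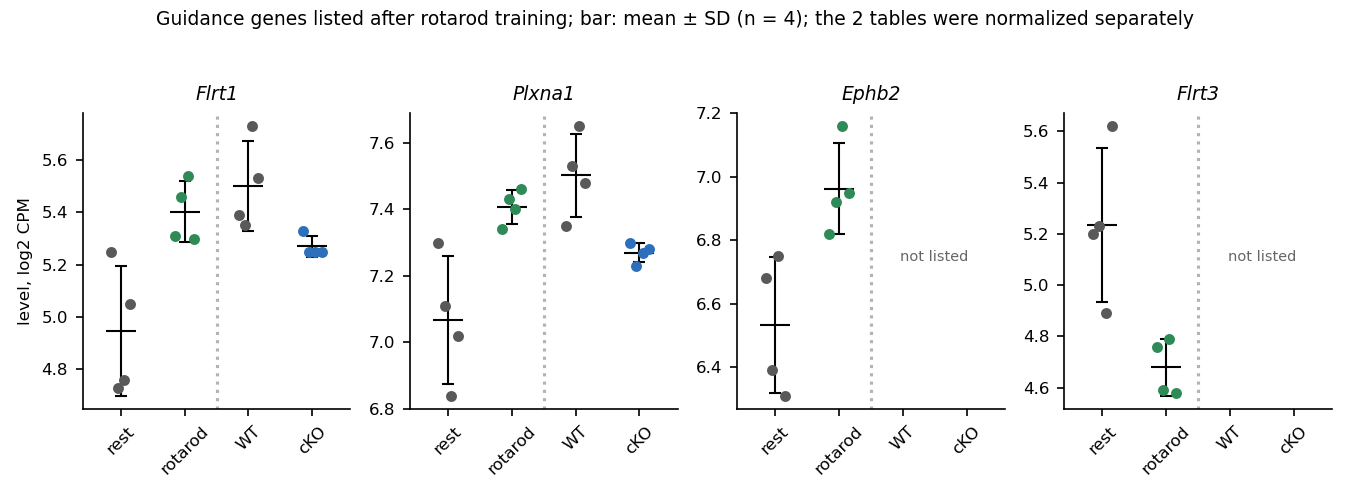
Level (log2 CPM) of the 4 members listed after rotarod training in each rest and rotarod library, and, right of the dotted line, in each WT and cKO library where that table lists the gene, with mean and SD (n = 4). Flrt1 and Plxna1 lie higher with training than at rest and lower in cKO than in WT.

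Among the related lists, the training table holds none of the 26 binding partners, 4 of 59 effectors (Sos1, Arhgap39, Dock1 and Tiam1, all higher by 0.26 to 0.32, none past limma) and 1 of 28 other cues. The latter is Bdnf, the neurotrophin gene, which rose by 0.73 ± 0.11 (adjusted p = 0.0364). Of all features tested 3.38% are listed after training. Dock1 and Tiam1, activators of Rac, differed by 0.31 ± 0.10 and 0.32 ± 0.10 with training and fell in cKO by 0.30 ± 0.06 and 0.33 ± 0.06. The Sync-TRAP tables of ribosome-bound RNA at postnatal day 12 list 38 and 51 genes, and none of them is a member. Lists this short can say little about 82 family genes.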

How the data were processed

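Cerebellum mRNA of 4 groups with 4 libraries each was used. The deposited tables give log2 CPM per library with a prior count, and the authors' log2 fold change, mean log2 abundance, likelihood ratio score, p-value and adjusted p-value for each listed gene, per the file headers. The submitters' processing notes name Bowtie, edgeR and the build mm9. Versions, and whether counting used strand, were not given in the sources used here. Each table lists genes with an adjusted p under 0.05. About 27100 and 26900 features were tested, from the deposited p-values. Repeated lines were removed (49 and 5). Low values were whole multiples of 1 read (all within 0.1 read), which gave library sizes. Where reads are given, they cover counting error only.

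Differences were fitted with limma 3.58.1 (R 4.3.3) on the log2 values of all listed genes, without a pseudocount, adjusted over all features tested. Count models planned for raw counts did not apply. Its variance prior comes from listed genes alone. The fit was also run on simulated data that adjusted over the listed genes only and changed only some of them. These settings differ from the main fit, so that run is no check of its calls. Nothing says that libraries came from separate animals, so p-values measure the spread between libraries. Values of every library are given for up to 3 members with the largest and 3 with the smallest difference in each of 5 role groups, and for members in both tables. Up to 4 genes past limma per direction are named from other lists, and the lower binding partners, Dcc and the effectors listed after training were named after their values were seen. The members and lists were chosen with earlier results of these data known. cKO and WT columns were matched to titles by genotype and number. Same-numbered libraries deviated from their group means with correlations of 0.0983, 0.160, 0.131 and 0.0846. Deviations of cKO libraries 1 and 2 correlated with those of WT libraries 1 and 2 at 0.0305 to 0.160. For libraries 3 and 4 the values were 0.0540 to 0.184. Across these sets they were -0.163 to -0.0710, apart from 0.0312 for cKO library 1 with WT library 4. Deviations are taken from each genotype's own mean, so positive values within the sets force negative ones across them. The sets were chosen after these values were seen. A split of libraries 1 and 2 from 3 and 4 is thus only a description. The main fit had no term for the number or for this split, and the split was not tested as a block. Columns of 12 Sync-TRAP libraries and the region lists were not used.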

Additional observations from a re-analysis of the deposited data

Results flagged for a closer look

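In 6 of the groups of 4 libraries (84 in the cKO and 8 in the rotarod comparison) 1 library stood apart from the other 3, measured as its gap to the nearest of them divided by the range of the group; chance gives about 1 in 20 groups. The ratio was 0.906 for Sema3g, where cKO library 3 had 4.58 log2 CPM and the others 4.70 to 4.71, and 0.843 for Ntn5, where cKO library 4 had -1.12 and the others -0.35 to -0.21. It was 0.875 for Slitrk3, where WT library 2 had 4.38 and the others 4.25 to 4.27, and 0.863 for Sema4f, where WT library 3 had 6.41 and the others 6.16 to 6.20. It was 0.932 for Flrt1, where cKO library 1 had 5.33 and the others 5.25, and 0.966 for Slitrk4, where WT library 4 had 6.08 and the others 5.95 to 5.96. Outside Ntn5 the gaps are at most 0.22 log2.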

How the results depend on the processing

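The listing of a gene largely fixes its direction in these libraries, so directions under other settings are not given as support. At or above the median abundance the authors' calls were 8 higher and 12 lower and limma's 7 and 4. With an absolute log2 fold change of at least 0.5 in the authors' table, 9 lower members remained in cKO and 1 higher with rotarod. Limma passed 18 lower members with a variance trend, 21 with centred libraries and 22 when adjusted over the listed genes, where 3 higher and 1 lower rotarod members also passed. That last setting adjusts only over genes already selected for differing. Every listed member passed it, so it adds no evidence for any of them. Centring lowers every cKO difference by the same amount, so its added lower calls carry no new evidence either. In splits chosen after seeing the data, within libraries 1 and 2 limma passed 5 higher and 2 lower members, and within 3 and 4, 8 and 2 (fewer samples). Leaving out 1 library gave 15 to 17 higher and 10 to 12 lower members in cKO, and medians of -0.20 to -0.15 log2. The median was -0.29 with centred libraries, -0.22 at or above the median abundance and 0.26 without Slitrk, Flrt and Lrrtm genes, where no lower rotarod member remained (0). With the replicate number as a block, limma passed 15 higher and 12 lower members: Ntn5, Ntn3 and Plxnc1 lost their calls and Ntn1 gained one. Not every library correlated best with its own number. No paired analysis was possible because of column numbers that match no title for rotarod and rest. Depth limits Ntn5 most (34 and 11 reads).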
